A study of Mus with 6 samples.

Results

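The proteasome genes of the mouse brain were examined on 6 arrays. The genes were taken from the platform annotation as every symbol beginning Psma to Psmg and followed by a number. This gave 50 symbols. The immunoproteasome genes Psmb8, Psmb9 and Psmb10 were left out, so that 47 of 19505 measured genes remained. The rule itself used no expression value, although it was set with earlier results of these data known. Of these, 32 encode subunits of the 20S core particle or of the 19S regulatory particle. The others are 5 genes of alternative activators, 1 inhibitor gene, 7 genes of assembly chaperones and 2 genes whose symbols match although they encode no subunit. Each was measured by 1 probe set. Psmb5, which encodes the catalytic subunit with chymotrypsin-like activity, has no probe set under its symbol in the annotation and was not analysed here.

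The proteasome is the protease that degrades proteins tagged with ubiquitin chains. Its 20S core is a barrel with outer rings of alpha subunits and inner rings of beta subunits, and only some beta subunits are catalytic. The 19S particle caps the barrel: its base holds a ring of ATPases that unfold the substrate, and its non-ATPase subunits bind and remove ubiquitin. In neurons the proteasome takes part in protein turnover at synapses, and its decline is studied in ageing and in models of memory loss.

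Brain RNA came from ICR mice, an outbred stock, on 2 arrays for Control, 2 for SCOP and 2 for CK. Control mice received 0.9% saline by gavage. SCOP mice, labelled as the model, received SCOP by intraperitoneal injection at 2 mg/kg, a compound that the labels and the paper's abstract call scopoletin hydrobromide. The authors' earlier mouse study, which the paper cites, names scopolamine hydrobromide in its title, and studies cited for the model used scopolamine. CK mice received the same SCOP injection and ginsenoside CK by gavage at 40 mg/kg. SCOP injections began partway through the course of daily gavage. All mice had been through behavioural tests, which per the methods included electric shocks, before the brain was taken. The labels call the arrays biological replicates and do not say whether each came from 1 mouse or from a pool, so the p-values measure the spread between these samples. No source used here gives the age or sex of the mice or the brain region. The values are log2 levels made with RMA, in which 1 unit is a 2-fold difference. Levels were compared between arrays for 1 gene at a time and not between genes.

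Over all genes, SCOP replicate 2 was unlike the remaining arrays. Its Pearson correlation with them was 0.965 to 0.969, against 0.990 to 0.993 among the other 5. The dim level, set for each array at the 95th percentile of its negative controls, was 5.55 there, against 4.98 to 5.16. Background controls with at least 16 G or C bases averaged 6.10 there, against 4.99 to 5.19. The 10 neuron markers were above the dim level on every array, as were the 6 astrocyte and 4 oligodendrocyte markers measured, and 0 of 3 liver markers were. Neuron markers averaged 8.72 on that array, below the 9.42 to 9.51 of the rest, and all 10 were lower there than on every other array. After cyclic loess normalization 7 of the 10 lay below the other arrays and 1 above. In the deposited values, 4 of 4 choroid plexus, 3 of 4 endothelium and 3 of 5 microglia markers also lay below all other arrays, beside 33.2% of all genes. Above lay 2 of 2 erythroid, 1 endothelium and 1 microglia marker, beside 32.6% of all genes. Astrocyte markers were split, with 3 above and 2 below, as were oligodendrocyte markers, with 2 and 2. Some gaps were small: Alas2 stood at 6.04 against 6.03 on SCOP replicate 1, and C1qa at 5.29 against 5.30 on Control replicate 1. The part that RNA quality or tissue composition had in this was not tested. In bulk tissue, fewer cells of a type and less RNA per cell cannot be told apart. For values that rest on that array, the value without it is given as well.

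Proteasome genes were well expressed in these brains. Above the dim level on all 6 arrays were 40 of the 47 genes. On no array were Psma8, the alpha subunit of the testis, Psmb11, the beta subunit of the thymus, or the assembly chaperone genes Psmg3 and Psmg4. Psme4, which encodes the activator PA200, was above it on 5 arrays, while Psme2b and Psmc3ip each passed it on 1. Psme2b is a close copy of Psme2, an activator gene, so the probes of the pair may share signal and both values are uncertain. Psmc3ip encodes a partner of meiotic recombinases and Psme3ip1 a protein that binds the activator PSME3.

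**Figure D1:**
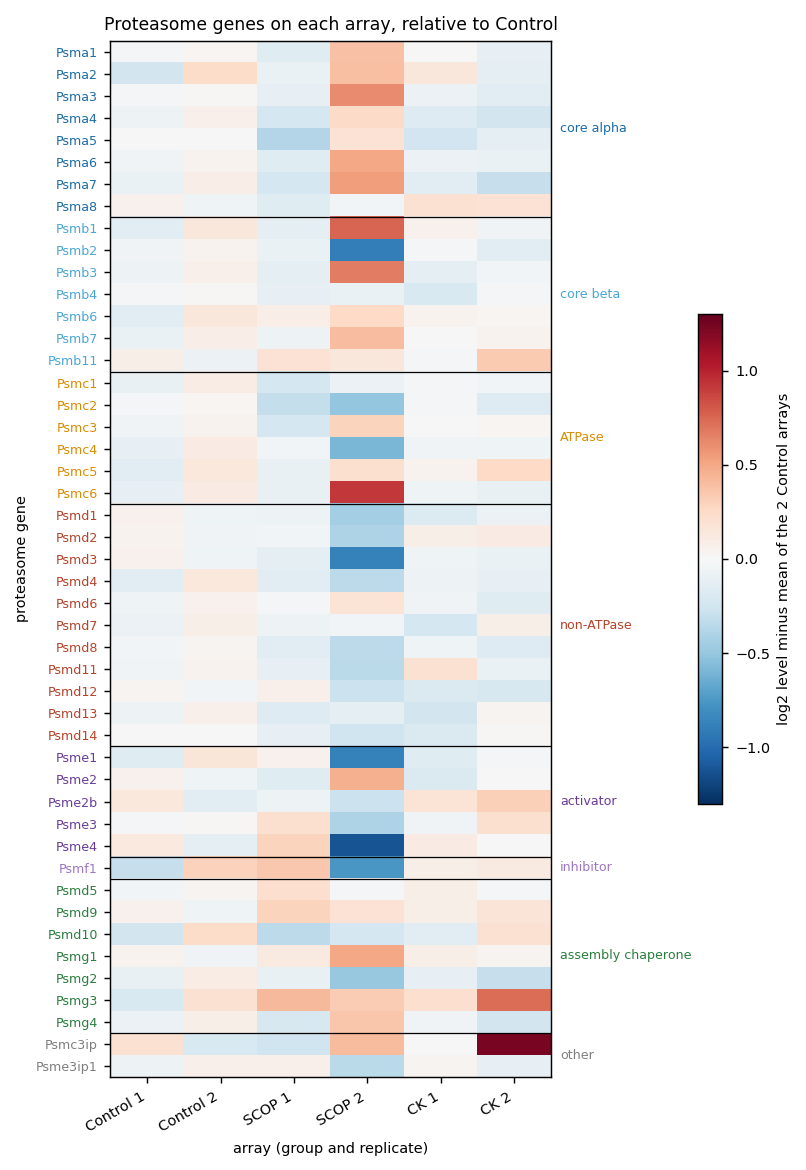
Log2 level of each of the 47 proteasome genes (rows, ordered by class) on each of the 6 arrays (columns), as the difference from the mean of the 2 Control arrays. The column of SCOP replicate 2 holds most of the strong colours, with core alpha genes other than Psma8 above Control and activator genes mostly below it.

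On the 5 arrays other than SCOP replicate 2, the genes hardly moved. The range of a gene over those 5 arrays had a median of 0.30 over the 47 genes, against 0.29 over the 7022 genes above the dim level on all arrays. Among the 32 core and regulatory subunits it ran from 0.15 for Psma3, an alpha subunit, to 0.49 for Psma2, another alpha subunit. The widest range of all, 1.49, belonged to Psmc3ip. The replicates of the Control group differed by a median of 0.12 over the 47 genes, those of the CK group by 0.11 and those of the SCOP group by 0.39.

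The catalytic subunits measured were Psmb6, with caspase-like activity, and Psmb7, with trypsin-like activity. Psmb6 stood at 7.96 and 8.26 on the Control arrays, 8.19 and 8.37 on the SCOP arrays, and 8.16 and 8.13 on the CK arrays. Psmb7 stood at 8.16 and 8.33 in Control, 8.19 and 8.65 in SCOP, and 8.26 and 8.29 in CK. SCOP replicate 2 was the highest array for both genes, and the other SCOP array lay within the range of Control. The limma estimate for SCOP against Control was 0.17 ± 0.21 (SE, n = 2 per group, adjusted p = 0.875) for Psmb6, and 0.081 without SCOP replicate 2. For Psmb7 it was 0.17 ± 0.22 (SE, adjusted p = 0.881), and without SCOP replicate 2 it was -0.061. CK against SCOP gave -0.14 for both genes, and without SCOP replicate 2 it gave -0.046 for Psmb6 and 0.087 for Psmb7. CK against Control gave 0.036 for Psmb6 and 0.026 for Psmb7.

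The subunits of the core particle were mostly high on SCOP replicate 2. Of 19505 genes, 32.6% lay above the range of the other 5 arrays on it and 33.2% below. Of the 47 proteasome genes, 17 lay above (36.2%) and 18 below (38.3%), close to those shares of all genes. Most proteasome genes are expressed, however, and many of all genes are dim. Of the 40 proteasome genes above the dim level on all arrays, 40% lay above and 40% below. The shares were 28.4% and 49.2% over the 7022 genes above that level. The classes differed. Among the 8 core alpha genes 7 lay above and 0 below, and the median of the class was 0.41 over the mean of the other 5 arrays. Psma8, the dim one, was the exception, and lay within the range. These counts are a description of 1 array, with no test.

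Among the alpha subunits, Psma3 stood at 7.46 and 7.49 in Control, 7.37 and 8.09 in SCOP, and 7.40 and 7.34 in CK. Psma7 stood at 7.55 and 7.74 in Control, 7.41 and 8.19 in SCOP, and 7.50 and 7.35 in CK. For both, SCOP replicate 2 was the highest of the 6 arrays and SCOP replicate 1 lay below both Control arrays. Psma5, also an alpha subunit, stood at 7.39 and 7.40 in Control, 7.01 and 7.58 in SCOP, and 7.14 and 7.27 in CK. It had the widest gap between SCOP replicate 1 and Control in its class, at -0.38.

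The beta subunits were more mixed. Psmb1, a structural beta subunit, stood at 8.41 and 8.71 in Control, 8.44 and 9.32 in SCOP, and 8.62 and 8.51 in CK. Psmb3, another structural beta subunit, stood at 7.37 and 7.49 in Control, 7.30 and 8.10 in SCOP, and 7.31 and 7.39 in CK. Both were highest on SCOP replicate 2, while SCOP replicate 1 differed from the Control mean by -0.12 for Psmb1 and -0.13 for Psmb3. Psmb2, a structural subunit of the same ring, went the other way, with 7.97 and 8.05 in Control, 7.92 and 7.11 in SCOP, and 7.98 and 7.87 in CK. Of the 7 beta genes, 4 lay above the other arrays on SCOP replicate 2 and 1 below.

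The position of the 19S genes on SCOP replicate 2 depended on the scaling. Of the 6 ATPase genes, 2 lay above the other arrays and 2 below as deposited, with a median of 0.075. After quantile normalization 4 lay above and 1 below with a median of 0.30, and after cyclic loess normalization 4 and 1 with a median of 0.36. The difference between the classes was not tested. Psmc6 stood at 7.42 and 7.62 in Control, 7.42 and 8.44 in SCOP, and 7.46 and 7.42 in CK. Psmc4 stood at 7.60 and 7.81 in Control, 7.67 and 7.11 in SCOP, and 7.66 and 7.65 in CK. These neighbours of a single ATPase ring thus lay on opposite sides of the other 5 arrays, Psmc6 by 0.97 and Psmc4 by -0.57.

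Of the 11 non-ATPase genes, 8 lay below the other arrays on SCOP replicate 2 (72.7%), 1 lay above, and their median was -0.27. Over the 7022 genes above the dim level on all arrays, 49.2% lay below, with a median of -0.14. The direction of the non-ATPase genes depended on the scaling. Their median was -0.21 after median centring, -0.053 after quantile normalization and 0.026 after cyclic loess normalization. In that order 6, 4 and 2 of them lay below, beside 43.9%, 34.4% and 32.6% of those 7022 genes. Psmd3, a scaffold subunit of the 19S lid, stood at 8.16 and 8.06 in Control, 7.98 and 7.23 in SCOP, and 8.06 and 8.03 in CK. It lay lowest on SCOP replicate 2, and both SCOP arrays were below both Control arrays. Psmd6, also in the lid, was the only one above, by 0.22. The core alpha median on that array was positive under every scaling, at 0.48, 0.64 and 0.69 in the same order.

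**Figure D2:**
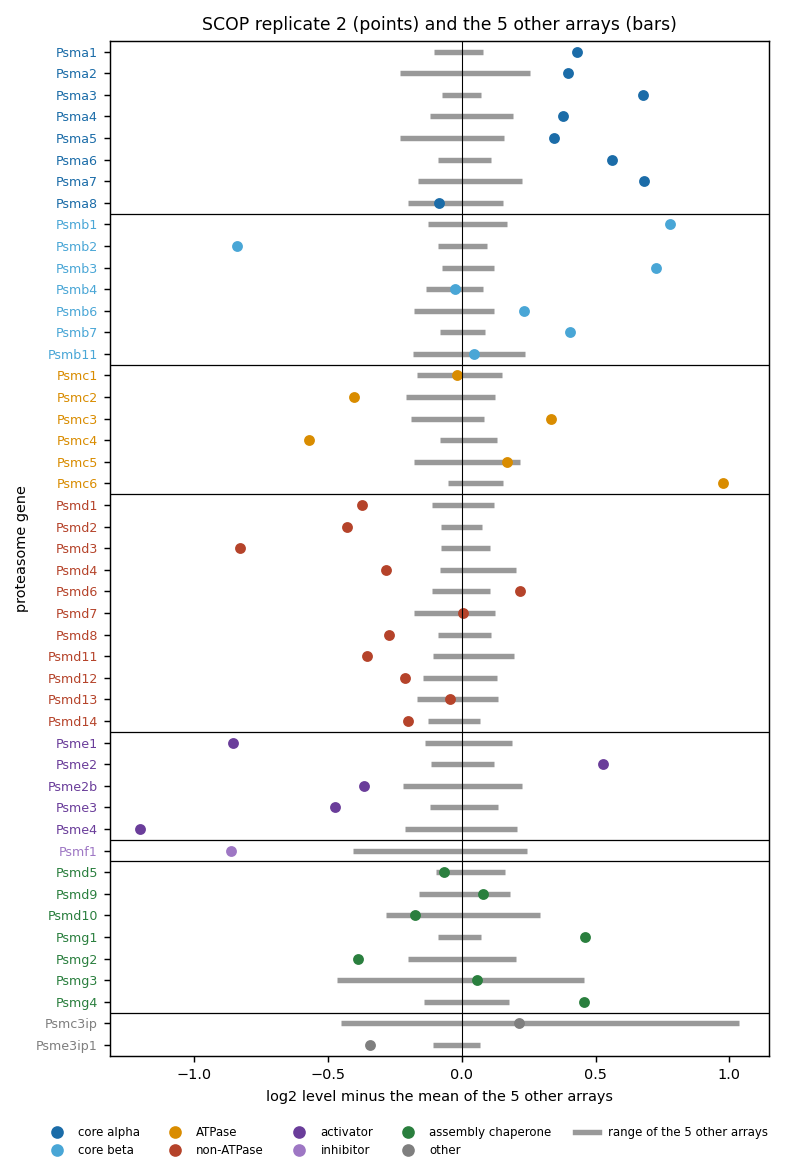
Log2 level on SCOP replicate 2 (points) and the range of the other 5 arrays (grey bars), both relative to the mean of those 5 arrays, for each of the 47 proteasome genes coloured by class. Core alpha genes other than Psma8 lie to the right of their bars and 4 of 5 activator genes to the left; most non-ATPase genes also lie left in the deposited values, with a median that reached 0.026 after cyclic loess normalization.

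The genes of alternative activators were mostly low on SCOP replicate 2. Psme1, which encodes the alpha subunit of the 11S activator PA28, stood at 8.40 and 8.73 in Control, 8.62 and 7.68 in SCOP, and 8.40 and 8.55 in CK. Psme4 stood at 5.34 and 5.07 in Control, 5.49 and 4.08 in SCOP, and 5.31 and 5.21 in CK. For both, SCOP replicate 2 was the lowest array, and for Psme4 SCOP replicate 1 was the highest. Psme2, the beta subunit of PA28 and the partner of Psme1, went the other way, with 5.37 and 5.27 in Control, 5.16 and 5.78 in SCOP, and 5.13 and 5.33 in CK. It lay only a little above the dim level, which was 5.55 on SCOP replicate 2 and 4.98 to 5.16 elsewhere. The rise of Psme2 on that array is therefore uncertain, and whether it follows the background was not tested. The class had 4 of 5 genes below the other arrays on SCOP replicate 2, beside 33.2% of all genes and 49.2% of expressed genes. Among them, Psme4 at 4.08 and Psme2b at 4.56 lay below the dim level of that array, so the size of their difference is uncertain. The class median was -0.47 there, and it stayed between -0.41 and -0.34 under the other scalings. Psmf1, which encodes the inhibitor PI31, stood at 7.80 and 8.39 in Control, 8.45 and 7.34 in SCOP, and 8.17 and 8.21 in CK. The Control arrays of Psmf1 were themselves 0.60 apart, the largest gap between Control replicates among the 47 genes.

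Of the assembly chaperone genes, Psmg1 was above the other arrays on SCOP replicate 2 by 0.46, and its usual partner Psmg2 was below, at -0.39. After quantile or cyclic loess normalization 0 of the 7 chaperone genes lay below. Psmg4 was above by 0.46 from a dim level. The other 4 lay within the range, among them Psmd10, which encodes gankyrin. Psmd10 stood at 6.00 and 6.47 in Control, 5.89 and 6.00 in SCOP, and 6.09 and 6.44 in CK, so that its replicates in Control differed by more than its group means.

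Other gene families stood on the same side as the core on SCOP replicate 2. Of 54 ribosomal protein genes, 50 lay above the other arrays with a median of 0.56. Of 82 nuclear genes of oxidative phosphorylation, 50 lay above and 17 below with a median of 0.32. Over the 7022 genes above the dim level on all arrays the median was -0.14, with 28.4% above and 49.2% below. That median was 0.078 after quantile normalization and 0.092 after cyclic loess normalization, so that its side depended on the scaling. What these groups share on that array was not tested.

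**Figure D3:**
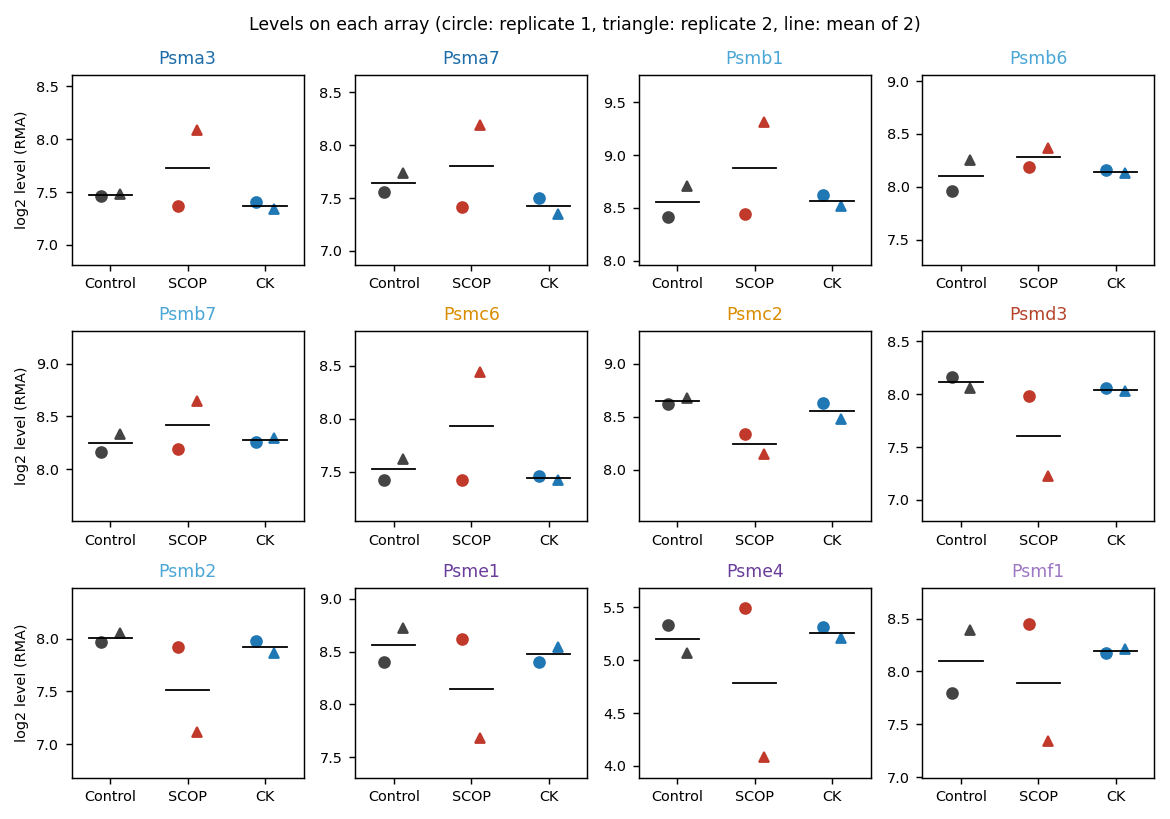
Log2 levels of 12 proteasome genes on each array, in 1 panel per gene, with a circle for replicate 1, a triangle for replicate 2 and a line at the mean of 2. In most panels the Control, CK and SCOP replicate 1 points lie together and SCOP replicate 2 lies apart, above them for Psma3, Psma7, Psmb1 and Psmc6 and below them for Psmd3, Psmb2, Psme1, Psme4 and Psmf1.

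SCOP was compared with Control to see what the model treatment did to these genes. No proteasome gene passed the test. With limma, 0 of 47 genes passed an adjusted p of 0.05, as did 0% of all 19505 genes. At an unadjusted p of 0.05, 0 of 47 passed in either direction, where 2.25% of all genes passed as higher and 1.06% as lower. The median log2 change of the 47 genes was -0.093, with 22 above 0 and 25 below, beside -0.089 over the genes above the dim level on all arrays. It was 0.037 after quantile normalization and 0.047 after cyclic loess normalization.

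The smallest p in this comparison belonged to Psmc2, an ATPase of the 19S ring. It stood at 8.62 and 8.67 in Control, 8.34 and 8.15 in SCOP, and 8.63 and 8.48 in CK. Both SCOP arrays lay below the other 4. The difference from Control was -0.40 ± 0.20 (SE, adjusted p = 0.864 by limma), and it was -0.31 without SCOP replicate 2. Psmd3 followed at -0.51 ± 0.27 (SE, adjusted p = 0.864 by limma), which shrank to -0.13 without that array. Psmb2 came next at -0.49 ± 0.28 (SE, adjusted p = 0.864 by limma), and shrank to -0.091. Psmg3 was the fourth, at 0.38 ± 0.25 (SE), from levels below the dim level on every array.

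The direction of the core classes in SCOP against Control depended on SCOP replicate 2. With it, the 8 core alpha genes had a median change of 0.13 and 6 of 8 lay above 0. Without it, all 8 lay below 0 with a median of -0.15. The 7 beta genes went from a median of 0.17 to -0.091 in the same way, and the 6 ATPase genes from -0.059 to -0.16 with all 6 below 0. With all arrays the ATPase median was 0.071 after quantile normalization and 0.11 after cyclic loess normalization. The non-ATPase median was -0.22 with the array and -0.11 without, and 10 of 11 genes were below 0 each time, though Psmd6 and Psmd12 changed sides. With all arrays it was -0.10 after quantile and -0.060 after cyclic loess normalization, with 8 and 7 genes below 0.

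Within those classes, the highest changes were 0.25 for Psma3, 0.32 for Psmb1, 0.41 for Psmc6 and 0.075 for Psmd6, and without SCOP replicate 2 each of the 4 was below 0. Psma8 was the lowest of the alpha genes, at -0.096. In the other classes Psme4 was lowest at -0.42, but 0.29 without that array, and Psme2 was highest at 0.15, but -0.16 without it. Psmf1 went from -0.20 to 0.35, Psmg2 from -0.29 to -0.099, Psme3ip1 from -0.14 to 0.065 and Psmc3ip from 0.076 to -0.26. None of these differences passed the test against the spread between replicates.

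With SCOP replicate 1 as the only SCOP array, 29 of the 32 core and regulatory subunits were below the Control mean, at a median of -0.11. The Control arrays were themselves apart, with medians of -0.046 for replicate 1 and 0.046 for replicate 2 against that mean. Over the 7022 genes above the dim level on all arrays, the median for SCOP replicate 1 was -0.011, with 3700 below. The ribosomal protein genes had a median of -0.15, with 50 of 54 below. The spread of this single array was taken from the remaining groups, and 0 of the 47 genes passed an adjusted or an unadjusted p of 0.05. Of all genes 0% passed the adjusted one, and 2.92% passed the unadjusted one as higher and 1.83% as lower. With SCOP replicate 2 as the only SCOP array, 7 of the 47 genes passed the adjusted threshold beside 16.1% of all genes. These were Psme4, Psmb2, Psmd3 and Psme1 on the lower side and Psmc6, Psmb1 and Psmb3 on the higher side.

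**Figure D4:**
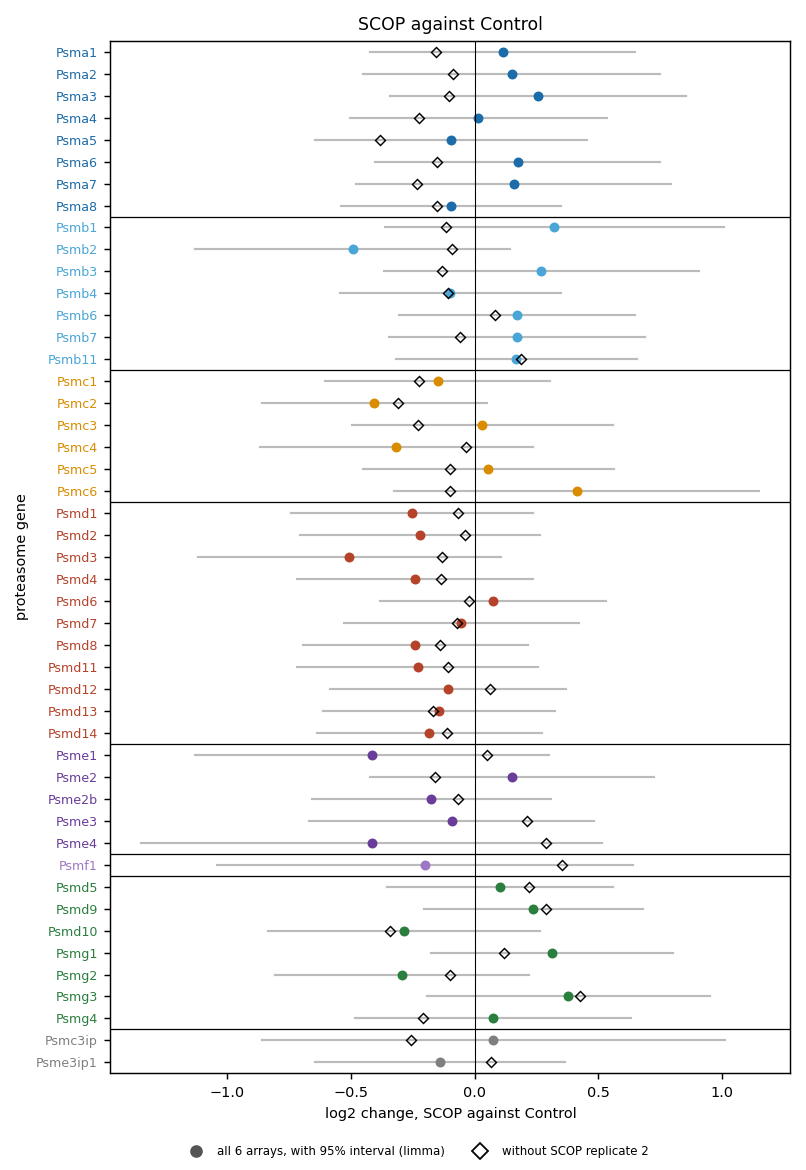
Log2 change of SCOP against Control for each of the 47 proteasome genes, with filled points and 95% intervals (limma) from all 6 arrays, and open diamonds from the fit without SCOP replicate 2. Every interval holds 0, and the diamonds of the core alpha and ATPase genes all lie below 0.

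CK was compared with SCOP to see what ginsenoside CK added to the model treatment. The comparison uses the same SCOP arrays as the one before, so that values high on SCOP replicate 2 there come back here with the opposite sign, and the pair of comparisons is not independent. Again 0 of 47 genes passed the adjusted threshold in limma, as did 0% of all genes. At an unadjusted p of 0.05, 0 of 47 passed, where 1.14% of all genes passed as higher and 1.43% as lower. The median change was 0.044 with all arrays and 0.027 without SCOP replicate 2. It was -0.012 after quantile normalization and -0.035 after cyclic loess normalization.

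The smallest p belonged to Psme2b, at 4.98 and 4.70 in Control, 4.77 and 4.56 in SCOP, and 5.01 and 5.15 in CK. Both CK arrays were the highest, in a range that crossed the dim level on only 1 array. The difference from SCOP was 0.42 ± 0.21 (SE, adjusted p = 0.890 by limma), and it was 0.31 without SCOP replicate 2. Psmd3 was at 0.44, Psmc2 at 0.31 and Psmc6 at -0.49, and without that array they stood at 0.063, 0.22 and 0.020. Psme2b, Psmd3 and Psmc2 had both CK arrays above both SCOP arrays, and Psmc6 overlapped.

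The core alpha genes were lower in CK than in SCOP at 7 of 8 genes with all arrays, at a median of -0.19. Without SCOP replicate 2 all 8 were higher, at a median of 0.086. The activators went from a median of 0.33 to -0.13, and the beta genes from -0.14 to 0.0054. The ATPase genes went from 0.11 to 0.21 and the non-ATPase genes from 0.13 to 0.027. The lowest changes per class were -0.38 for Psma7, -0.35 for Psmb3, -0.17 for Psmd6, -0.24 for Psme2 and -0.26 for Psmg1. Without SCOP replicate 2 these were 0.013, 0.053, -0.075, 0.070 and -0.063 in the same order. The highest were 0.29 for Psma8, 0.41 for Psmb2, 0.47 for Psme4 and 0.32 for Psmd10, which became 0.35, 0.0054, -0.23 and 0.37. Psmf1 went from 0.30 to -0.26, Psme3ip1 from 0.10 to -0.10 and Psmc3ip from 0.54 to 0.87. With SCOP replicate 2 as the only SCOP array, 9 of the 47 genes passed the adjusted threshold beside 16.6% of all genes: Psme4, Psmd3, Psmb2 and Psme1 higher in CK, and Psmc6, Psmb3, Psma3, Psma7 and Psmb1 lower.

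CK was compared with Control to see how far the treated brains lay from untreated ones, and its differences use no SCOP array, although the spread behind its p-values was estimated with them. With limma, 0 of 47 genes passed the adjusted threshold, beside 0% of all genes. At an unadjusted p of 0.05, 0 of 47 passed, where 0.969% of all genes passed as higher and 0.467% as lower. Without SCOP replicate 2 in that spread, 0 of 47 genes and 0% of all genes passed the adjusted threshold, and 0 of 47 passed the unadjusted one, beside 3.26% of all genes as higher and 1.93% as lower. The median change was -0.049, with 20 genes above 0 and 27 below, and for the 32 core and regulatory subunits it was -0.078 with 22 below. It was -0.12 without Control replicate 1 and 0.025 without Control replicate 2 over the 47 genes, so that its sign depended on which Control array was kept. The ribosomal protein genes had a median of -0.13 in the same comparison and the expressed genes one of -0.013.

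The differences were small for most genes. Among the subunits they ran from -0.22 for Psma7 to 0.19 for Psma8, which is dim. Psmg3 had the smallest p, at 3.27 and 3.66 in Control, 3.89 and 3.80 in SCOP, and 3.68 and 4.20 in CK. Both CK arrays were above both Control arrays, the difference was 0.47 ± 0.25 (SE, adjusted p = 1 by limma), and all 6 values were below the dim level.

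Psmc3ip gave the highest change, 0.62 ± 0.41 (SE), from 4.57 and 4.18 in Control, 4.12 and 4.79 in SCOP, and 4.38 and 5.61 in CK. It rested on CK replicate 2, and the other CK array lay between the Control arrays. Psme2b was at 0.24. In the other classes the lowest were Psmb4 at -0.11, Psmc2 at -0.092, Psmd12 at -0.20, Psme1 at -0.090 and Psmg2 at -0.20. The highest were Psmb11 at 0.16, Psmc5 at 0.15 and Psmd2 at 0.089, with Psmf1 at 0.096 and Psme3ip1 at -0.036.

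The precision limits what could be seen, and it rested on the few arrays and on the spread of the SCOP group. The 95% interval of a change among the 32 core and regulatory subunits reached 0.44 to 0.74 to either side, with a median of 0.50. Over all genes, changes of CK against Control ran from -1.46 to 1.72, and 0 genes passed the adjusted threshold. For that comparison the intervals of the 32 subunits reached from -0.85 to 0.69, so that differences inside a subunit's interval are not shown to be absent. Those bounds are the outermost of single, unadjusted intervals and are not limits of detection. Without SCOP replicate 2 the interval reached 0.33 to 0.48 to either side, the bounds were -0.58 and 0.57, and the intervals of all 32 subunits held 0.

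**Figure D5:**
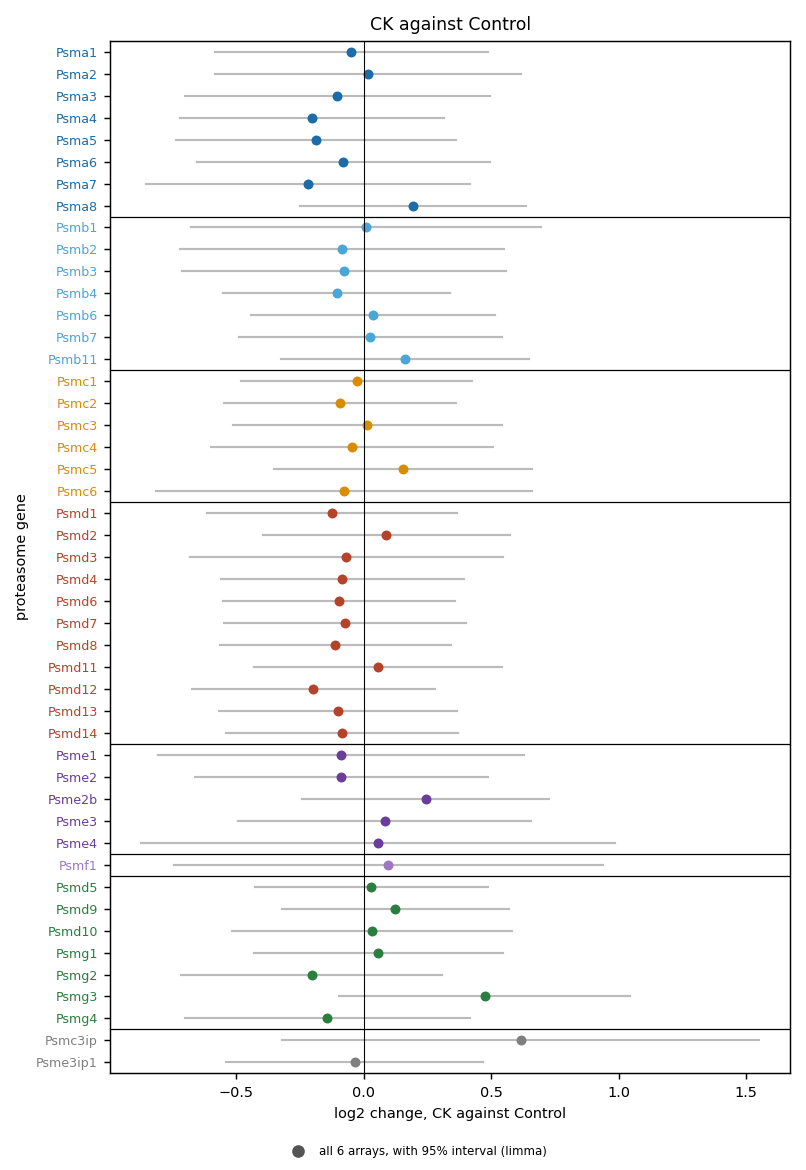
Log2 change of CK against Control for each of the 47 proteasome genes, coloured by class, with the 95% interval of the limma fit. All intervals hold 0, and the subunits lie between -0.22 and 0.19.

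Other genes of the ubiquitin and proteasome pathway were read beside the subunits. Of a list of 38 such genes, 27 were measured under their symbol, the 3 immunoproteasome genes among them. None passed the adjusted threshold in limma in any comparison, and 1 of 27 passed an unadjusted p of 0.05, in SCOP against Control, where 1.06% of all genes passed as lower. It was Ngly1, an enzyme that removes N-glycans and acts on the transcription factor Nfe2l1. Ngly1 stood at 4.51 and 4.27 in Control, 3.88 and 3.85 in SCOP, and 4.18 and 4.10 in CK. Both SCOP arrays were the lowest, by -0.53 against Control (adjusted p = 0.864 by limma), and all 6 values were below the dim level. Nfe2l1, which drives proteasome genes when proteasome activity is short, stood at 9.74 and 9.73 in Control, 9.61 and 9.25 in SCOP, and 9.69 and 9.70 in CK.

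The immunoproteasome genes replace the catalytic subunits in immune cells. Psmb8 and Psmb9 were below the dim level on every array. Psmb8 was highest on SCOP replicate 2, at 5.31, against 3.78 to 4.33 on the other 5 arrays. Psmb10 was above the dim level on every array, at 5.85 and 6.15 in Control, 5.85 and 6.07 in SCOP, and 5.83 and 5.98 in CK.

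The partners of the proteasome stood on both sides on SCOP replicate 2, in shares that depended on the scaling. Of the 27 pathway genes, 16 lay below the other arrays there and 4 above as deposited, beside 33.2% of all genes and 49.2% of expressed genes below. After quantile normalization 13 lay below and 10 above, and after cyclic loess normalization 12 and 11. Vcp, the segregase that extracts ubiquitinated proteins, stood at 4.58 on it and at 6.89 to 7.37 elsewhere. The shuttle factor Ubqln2 stood at 6.66 against 8.31 to 8.48, and Usp14, a deubiquitinase bound to the 19S particle, at 5.04 against 6.29 to 6.52. The values of Vcp and Usp14 on SCOP replicate 2 lay below its dim level of 5.55, so the size of their difference is uncertain. On the high side, Sem1, a small subunit of the 19S lid, stood at 8.79 against 7.67 to 8.07. Pomp, the chaperone that matures the 20S core, stood at 8.77 against 7.89 to 8.22. Without SCOP replicate 2, the SCOP and Control arrays differed by 0.46 for Vcp, 0.11 for Ubqln2, -0.074 for Usp14, -0.29 for Sem1 and -0.17 for Pomp.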

How the data were processed

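Brain RNA of 6 mouse samples was hybridised to one-colour Affymetrix whole-transcript arrays. The table deposited by the authors holds a log2 value for each probe set. The submitters' processing notes name RMA, without a version. Because RMA scales arrays to each other, total RNA cannot be compared. The number of arrays limits the precision. Symbols came from the platform annotation, and each gene was represented by its brightest probe set on average, giving 19505 genes. Groups came from the sample labels. One limma model (limma 3.58.1, R 4.3.3) covered the 6 arrays (lmFit, eBayes without trend or robust; 3 residual and 5.08 prior degrees of freedom), and p-values were adjusted by Benjamini-Hochberg over all genes at a threshold of 0.05. The methods name a t-test, which was run as an alternative. The model was tested on simulated data in which a gene's spread was the same on every array. The changes put in were larger than those of the proteasome genes with all arrays. That test therefore did not cover an outlying array or changes as small as these. The members and lists were chosen with earlier results of these data known. Named were the catalytic subunits, the 4 smallest p per comparison, the lowest and highest change of each class, pathway genes at an unadjusted p of 0.05 and the immunoproteasome genes; those described by array beyond this rule (Psma5, Psmc4, Nfe2l1, Vcp, Ubqln2, Usp14, Sem1, Pomp and others) were chosen after their values were seen. Alternatives were other scalings, filters, spread models, array weights, probe set averages, subsets of arrays and a replicate block. With 2 arrays per group the weights were equal within a group, at 0.342 for both SCOP arrays. They could therefore not lower the weight of SCOP replicate 2 alone. Cyclic loess normalization, the position of SCOP replicate 2 and the counts and intervals without it were added after the values were seen. No sequences were printed.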

Additional observations from a re-analysis of the deposited data

How the results depend on the processing

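No setting other than the removal of SCOP replicate 1 gave a gene past the adjusted threshold. Leaving out each array in turn gave 0 to 3137 genes and 0 to 7 proteasome genes for SCOP against Control, and 0 to 3240 and 0 to 9 for CK against SCOP, with all of these calls on SCOP replicate 2 as the lone SCOP array. Proteasome genes at an unadjusted p of 0.05 then ran from 0 to 17, 0 to 20 and, for CK against Control, 0 to 1. The highest of these counts came with SCOP replicate 2 as the lone SCOP array, where many of all genes also passed the adjusted threshold. The methods' t-test gave 1 in each comparison, with 0 genes after Benjamini-Hochberg adjustment, and array weights gave 1 for CK against Control. The share of all genes at the unadjusted threshold is not given for the settings with such calls. Without that share, these counts cannot tell a change particular to proteasome genes from one of all genes. The replicate numbers did not pair the arrays (correlations of 0.024, -0.0049 and -0.028), and with the replicate block 0 genes and 0 proteasome genes were called in each comparison.

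The median change of the proteasome genes ran from -0.099 to -0.038 over the left-out arrays for SCOP against Control, from -0.030 to 0.081 for CK against SCOP and from -0.12 to 0.025 for CK against Control. It was 0.037 with quantile and 0.047 with cyclic loess normalization for SCOP against Control. For CK against SCOP it was -0.012 and -0.035 with these, -0.0083 with the filter at the median and -0.013 with core and regulatory subunits alone. For CK against Control it was -0.12 with median centring. The cause of these moves was not tested.

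Single genes whose sign turned when 1 array was left out had these ranges. For SCOP against Control they were -0.061 to 0.40 for Psmb7, -0.10 to 0.61 for Psma3, -0.12 to 0.76 for Psmb1, -0.098 to 0.92 for Psmc6, -0.022 to 0.17 for Psmd6, -1.12 to 0.29 for Psme4, -0.16 to 0.46 for Psme2, -0.76 to 0.35 for Psmf1, -0.35 to 0.065 for Psme3ip1 and -0.26 to 0.41 for Psmc3ip. For CK against SCOP they were -0.37 to 0.087 for Psmb7, -1.0 to 0.020 for Psmc6, -0.77 to 0.013 for Psma7, -0.75 to 0.053 for Psmb3, -0.55 to 0.070 for Psme2, -0.23 to 1.18 for Psme4, -0.26 to 0.85 for Psmf1, -0.10 to 0.31 for Psme3ip1 and -0.074 to 1.15 for Psmc3ip. For CK against Control they were -0.11 to 0.18 for Psmb6, -0.058 to 0.11 for Psmb7, -0.016 to 0.34 for Psmb11, -0.25 to 0.073 for Psme1, -0.20 to 0.39 for Psmf1 and -0.11 to 0.036 for Psme3ip1. Psme3ip1 also turned with cyclic loess normalization, to 0.018 for SCOP against Control and -0.030 for CK against SCOP, and in CK against Control median centring turned Psmb6 to -0.032 and Psmb7 to -0.042. Signal over background limits Psma8, Psmb11, Psmg3 and Psmg4, which were below the dim level on every array.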
